A study of Mus musculus with 2 samples.

Results

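Small late islands are short stretches of late-replicating DNA set between long early-replicating ones. They were chosen by the sign of a replication timing score, and by the lengths of the runs it forms, in mouse embryonic stem cells. The line was 46C, which carries a green fluorescent reporter at the neural gene Sox1, on the strain 129P2/Ola, and was kept in leukemia inhibitory factor. The cells took up 50 µM bromodeoxyuridine (BrdU, a thymidine analogue built into new DNA) over 2 h and were sorted by DNA content into an early S phase and a late S phase fraction, with 1 library from each. Both fractions came from the same untreated cells, and the 2 libraries differ only in the part of S phase they sample. The deposited value is a score per genomic position, early against late, smoothed over 300 kb. A score above 0 was taken to mean early, an assumption based on how the deposited table is named. Neither its log base nor its zero point is known, so no difference is stated as a fold. The read depth is unknown. The assay reads DNA, so the label of the cells could not be checked by marker genes. With no replicate library there is no error between experiments, and no test was made.

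An island was a run of positions below 0 that was 300 to 800 kb long and lay between 2 runs above 0 of at least 1 Mb each, on chromosomes 1 to 19, with no gap over 300 kb in or beside it. The rule found 28 islands among 1911 runs. There were 246 late runs of 300 to 800 kb, and 11.4% of them met the rule on flanks. The islands covered 14.6 Mb, which was 1.06% of the late length of these chromosomes, and 56.2% of all 364448 autosomal positions lay below 0. They lay on 14 chromosomes, with 3 each on chromosomes 2, 4, 5, 11 and 16. The mirrored rule, a short early run between long late ones, found 81 of 302 early runs of that length (26.8%). Because the sign of the score chose the islands, their scores are given as a description.

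Mammalian chromosomes replicate in large domains, each copied from many origins that fire at about the same time. Early domains are mostly rich in genes and open chromatin, and late domains are mostly poor in genes and often lie at the nuclear lamina. A short late stretch inside an early domain is therefore reached by forks from both sides unless origins fire within it. Many mammalian promoters are rich in the dinucleotide CpG, which is scarce in the rest of the genome, and such CpG-rich starts are typical of widely used and of developmental genes. Promoters of genes used in few tissues are often poor in CpG, and some carry a TATA box.

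The islands were of 2 kinds by their genes, a division made after the values were seen. In 8 islands at least 3 protein-coding genes shared the first 3 letters of their symbol, and these islands held clustered families: vomeronasal and olfactory receptors, keratins, a cytochrome P450 cluster and protocadherins. The other 20 islands held few genes, often part of a very long one. Sequences just upstream of genes of both kinds show the contrast. They are the 250 bases before the listed RefSeq start farthest upstream (build GRCm38.p6, with the same chromosome coordinates as mm10), written 5′ to 3′, with each CG and each TATAAA or its reverse complement TTTATA in capitals. The first 4 are the genes nearest to the lowest position of their family island:
Krtap4-6 (chr11:99665961-99666210, minus strand): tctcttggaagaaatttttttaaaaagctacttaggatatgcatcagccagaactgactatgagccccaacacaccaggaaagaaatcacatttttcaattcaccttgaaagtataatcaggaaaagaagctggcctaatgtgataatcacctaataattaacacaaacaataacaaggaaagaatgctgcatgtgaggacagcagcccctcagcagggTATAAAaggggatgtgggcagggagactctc
Cyp3a11 (chr5:145879855-145880104, minus strand): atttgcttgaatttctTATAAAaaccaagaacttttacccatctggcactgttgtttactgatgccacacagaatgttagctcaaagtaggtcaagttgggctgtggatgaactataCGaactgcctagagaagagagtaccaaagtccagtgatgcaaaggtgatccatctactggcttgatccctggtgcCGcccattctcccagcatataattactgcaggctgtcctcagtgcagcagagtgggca
Vmn2r16 (chr5:109330131-109330380, plus strand): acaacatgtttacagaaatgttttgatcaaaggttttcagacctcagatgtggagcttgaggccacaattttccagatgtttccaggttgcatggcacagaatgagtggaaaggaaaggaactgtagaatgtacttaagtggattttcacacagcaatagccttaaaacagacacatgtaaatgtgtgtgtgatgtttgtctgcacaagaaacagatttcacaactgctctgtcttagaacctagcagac
Olfr164 (chr16:19286742-19286991, minus strand): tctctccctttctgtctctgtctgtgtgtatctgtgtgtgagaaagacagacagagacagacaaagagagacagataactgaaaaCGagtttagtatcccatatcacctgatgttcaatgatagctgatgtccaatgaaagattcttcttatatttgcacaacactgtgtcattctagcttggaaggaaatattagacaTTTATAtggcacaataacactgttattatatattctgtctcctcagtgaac
The next 4 are genes of islands without a family, each either the longest in its island or the nearest to its lowest position:
Slc24a3 (chr2:145167525-145167774, plus strand): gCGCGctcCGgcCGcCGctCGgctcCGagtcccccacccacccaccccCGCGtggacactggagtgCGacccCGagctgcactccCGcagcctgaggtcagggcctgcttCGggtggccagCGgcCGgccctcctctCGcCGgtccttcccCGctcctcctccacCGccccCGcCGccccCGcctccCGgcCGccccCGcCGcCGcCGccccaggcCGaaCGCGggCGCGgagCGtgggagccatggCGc
Ror1 (chr4:100095541-100095790, plus strand): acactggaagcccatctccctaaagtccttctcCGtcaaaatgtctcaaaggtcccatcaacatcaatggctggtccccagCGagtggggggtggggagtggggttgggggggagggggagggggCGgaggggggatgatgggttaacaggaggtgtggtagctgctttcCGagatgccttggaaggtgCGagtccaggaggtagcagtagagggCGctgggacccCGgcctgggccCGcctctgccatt
Abhd5 (chr9:122351366-122351615, plus strand): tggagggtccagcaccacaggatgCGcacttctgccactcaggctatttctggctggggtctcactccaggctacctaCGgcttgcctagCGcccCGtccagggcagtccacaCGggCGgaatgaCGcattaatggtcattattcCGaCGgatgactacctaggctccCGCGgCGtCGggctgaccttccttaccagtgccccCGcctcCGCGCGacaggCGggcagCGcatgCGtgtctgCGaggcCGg
Catsperb (chr12:101404423-101404672, plus strand): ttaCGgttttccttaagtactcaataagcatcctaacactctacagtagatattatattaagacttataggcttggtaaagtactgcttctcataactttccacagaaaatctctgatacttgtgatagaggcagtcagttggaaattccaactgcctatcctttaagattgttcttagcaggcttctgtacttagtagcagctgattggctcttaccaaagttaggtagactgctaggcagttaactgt
Krtap4-6, a hair keratin-associated gene, had no CG in this stretch and its TATAAA began 31 bases before the start. Cyp3a11, a drug-metabolising enzyme gene, had 2 CG, and its TATAAA lay 234 bases before the start. Vmn2r16, a vomeronasal receptor gene, had no CG, and Olfr164, an olfactory receptor gene, had 1. By contrast, Slc24a3, a sodium, potassium and calcium exchanger gene, had 35, Abhd5, a cofactor gene of fat breakdown, had 22, and Ror1, a Wnt receptor kinase gene, had 8. Catsperb, a sperm calcium channel subunit gene, was the exception among the 4 with 1 CG.

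Over all listed promoters the 2 kinds of island stood far apart. In windows of 300 bases (250 before to 50 after the start), promoters of the family islands had a median of 2 CpG (quartiles 0.50 and 3) over 107 genes, and those of the other islands had a median of 16 (quartiles 9.50 and 27.5) over 27 genes. At least 10 CpG were found in 3 of the 107 (2.80%) and in 20 of the 27 (74.1%). The exact 95% binomial intervals were 0.582% to 7.98% and 53.7% to 88.9%. They cover counting error only, and only if each promoter is taken as independent. Across all 16456 autosomal protein-coding promoters listed the share was 58.6%. It was 71.4% in the early runs that flank the islands and 31.8% in late runs over 800 kb. Over all 28 islands the share was 17.2% (23 of 134), below the 31.8% of those long late runs and the 32.0% of the other late runs of 300 to 800 kb, both of which still hold their gene families. The 74.1% is for a subset made by taking the families out, which was not done in the classes beside it. Genes were placed by midpoint, and 3 of the 27, Hpse2, Tc2n and Lrrc49, started outside their island at scores above 0, each with at least 10 CpG. Among the 25 listed starts that lay inside a sparse island, 17 (68%) had at least 10 CpG. When runs were redrawn around the autosomal median score (-0.30) in place of 0, the share in the sparse islands was 43.8% of 32 promoters, below the autosomal share. Genes of a family are copies of each other and their promoters are not independent. The counts and intervals therefore describe the places and not separate cases. No promoter of the protocadherin island was analysed here. Starts were taken as listed. Some receptor genes were listed as short entries, such as Olfr164 (0.948 kb) and Vmn1r46 (0.93 kb). Whether transcription of such genes begins at the listed start was not checked. The CpG and TATAAA counts share this limit.

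The motif TATAAA, searched on both strands, was in 52 of the 107 family promoters (48.6%) and in 1 of the 27 others, that of Svep1. The share over all autosomal promoters was 13.5%. The keratin island held 40 of the 52, among 44 promoters, and outside it the count was 12 of 63. That is near the share of the other late runs of 300 to 800 kb and below that of the longer ones. In the family islands the promoters with 10 or more CpG belonged to Slc1a6, a glutamate transporter gene with 32, to Crlf2, a cytokine receptor gene with 31, and to 2610008E11Rik. None of these is a member of the family beside it.

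**Figure D1:**
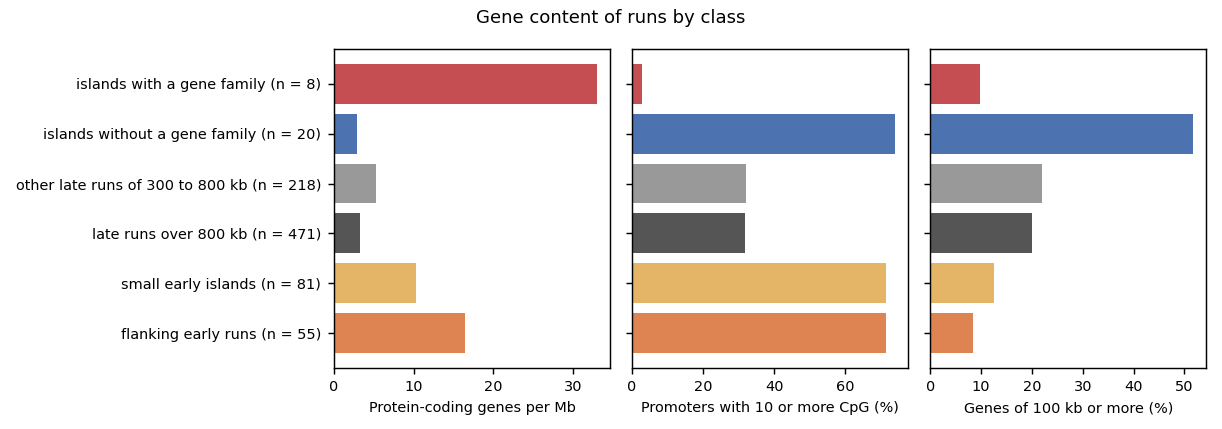
Bars give protein-coding genes per Mb (left), the percentage of listed promoters with at least 10 CpG (middle) and the percentage of protein-coding genes of at least 100 kb (right) for 6 classes of runs, with the number of runs in each label. The 8 islands with a gene family are dense in genes (33.0 per Mb), and the 20 without one are sparse (2.91 per Mb). CpG-rich promoters made up 2.80% of those analysed in 7 of the 8 family islands, all but the protocadherin island. They made up 74.1% in the 20 others. The other 4 classes keep their gene families.

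Gene density also differed between the 2 kinds, in part by construction, because a family island must hold at least 3 protein-coding genes. The 28 islands held 182 protein-coding genes by midpoint, or 12.5 per Mb, against 16.5 per Mb in the 55 flanking early runs and 3.29 per Mb in the 471 late runs over 800 kb. The 8 family islands alone held 153 genes, or 33.0 per Mb, and the other 20 held 29, or 2.91 per Mb. The 218 late runs of the same length that did not meet the rule on flanks had 5.26 per Mb, and the 81 small early islands 10.4. The mean density of all islands is therefore set by few places: the median over islands was 3.76 per Mb and the highest was 71.7, in the keratin island. Redrawn around the autosomal median, the density was 7.70 per Mb. Counting genes of all kinds, pseudogenes stood at 8.64 per Mb in family islands and 2.00 in the others, and long non-coding RNA genes at 2.16 and 6.81. Over all autosomal runs pseudogenes stood at 3.80 and long non-coding RNA genes at 5.15 per Mb. In the other late runs of 300 to 800 kb they stood at 4.5 and 5.33.

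Genes of the sparse islands were long. Of their 29 protein-coding genes 15 (51.7%) were at least 100 kb long, with a median length of 101 kb, against 11.2% of all autosomal protein-coding genes and 8.39% of genes in the flanks. In late runs over 800 kb the share was 20.0%, and in the other late runs of 300 to 800 kb it was 21.9%. These classes still hold their gene families. Over all 28 islands the share was 16.5% (30 of 182), below that of both. A further 15 genes of that length lay in the family islands, all in the protocadherin island: 12 alpha genes and the predicted genes Gm37013, Gm38666 and Gm38667, which span the cluster. These 15 entries overlap one another, so the 16.5% rests in part on the protocadherin locus.

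Of 34 genes of at least 100 kb that overlapped an island, 17 had a listed start, and 13 of those starts lay inside the island. The genes without one were Grin2a, Ccdc150 and 15 of the protocadherin island, of which Gm37013, Gm38666 and Gm38667 had both ends above 0. Those 15 entries overlap one another and are not separate stretches of the genome. The other 4 starts, of Hpse2, Galk2, Atp8b4 and Lrrc49, lay in the early flanks at scores of 0.54, 0.77, 1.03 and 0.16. Several genes ran from a late start into an early end. Kalrn started at -0.60 and had 1.25 at its far end. Thsd4, a gene of a matrix protein with thrombospondin repeats, went from -0.37 to 1.19. The zinc finger gene Tshz2 went from -0.77 to 1.47, and the ubiquitin ligase gene Hecw2 from -0.20 to 1.08. Only 9 of the 34 genes lay wholly inside their island, among them Pcdha11 and Pcdha12.

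Across the edge of the sparse islands the number of gene starts changed gradually. Listed protein-coding starts numbered 1.75 per Mb in the last 100 kb inside the edge, 5.00 per Mb in the first 100 kb outside, 8.25 from 100 to 200 kb and 11.8 from 200 to 300 kb. At the 7 family islands with listed starts (all but the protocadherin island) there were 20.0 per Mb in the last 100 kb inside and 23.6 in the first 100 kb outside. The kind of promoter differed more, with at least 10 CpG in 2 of 28 starts inside that edge, 6 of 33 just outside and 16 of 26 from 100 to 200 kb. The score is smoothed over 300 kb, so the place of an edge is not known to within such steps.

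**Figure D2:**
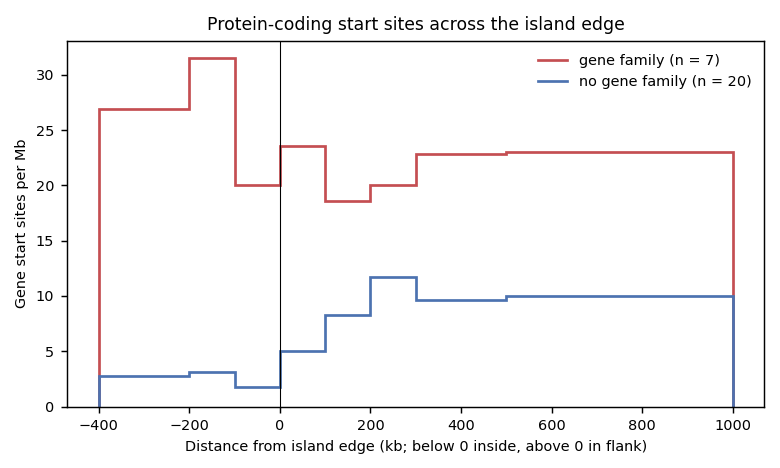
Steps give the number of listed protein-coding start sites per Mb by distance from the island edge, inside (below 0) and in the flanking early run (above 0), for the 7 islands with a gene family and listed starts and the 20 without a family. Starts at sparse islands number 1.75 to 3.15 per Mb inside and reach 11.8 at 200 to 300 kb outside. Family islands stay between 18.6 and 31.5 throughout.

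The depth of the islands varied widely. The lowest score ranged from -1.53 to -0.36 over the 28 islands, with a median of -0.97, and 12 islands went below -1. For comparison, the lowest scores of late runs over 800 kb had a median of -1.61 and those of the other late runs of 300 to 800 kb -0.90. The lowest score had a median of -1.17 in the 8 family islands and -0.86 in the 20 others, with ranges that overlapped. Longer islands went lower (Spearman's rank correlation -0.71 over 28 islands, which share 1 pair of libraries). The score is averaged over 300 kb, close to the length of the shortest islands, and the part of this in the relation was not tested. Both flanks rose above 1 within 1 Mb of the edge for 26 islands. From an edge, the score reached 0.5 within a median of 80.5 kb over the 56 edges, and the slowest was 575 kb, above Ror1.

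**Figure D3:**
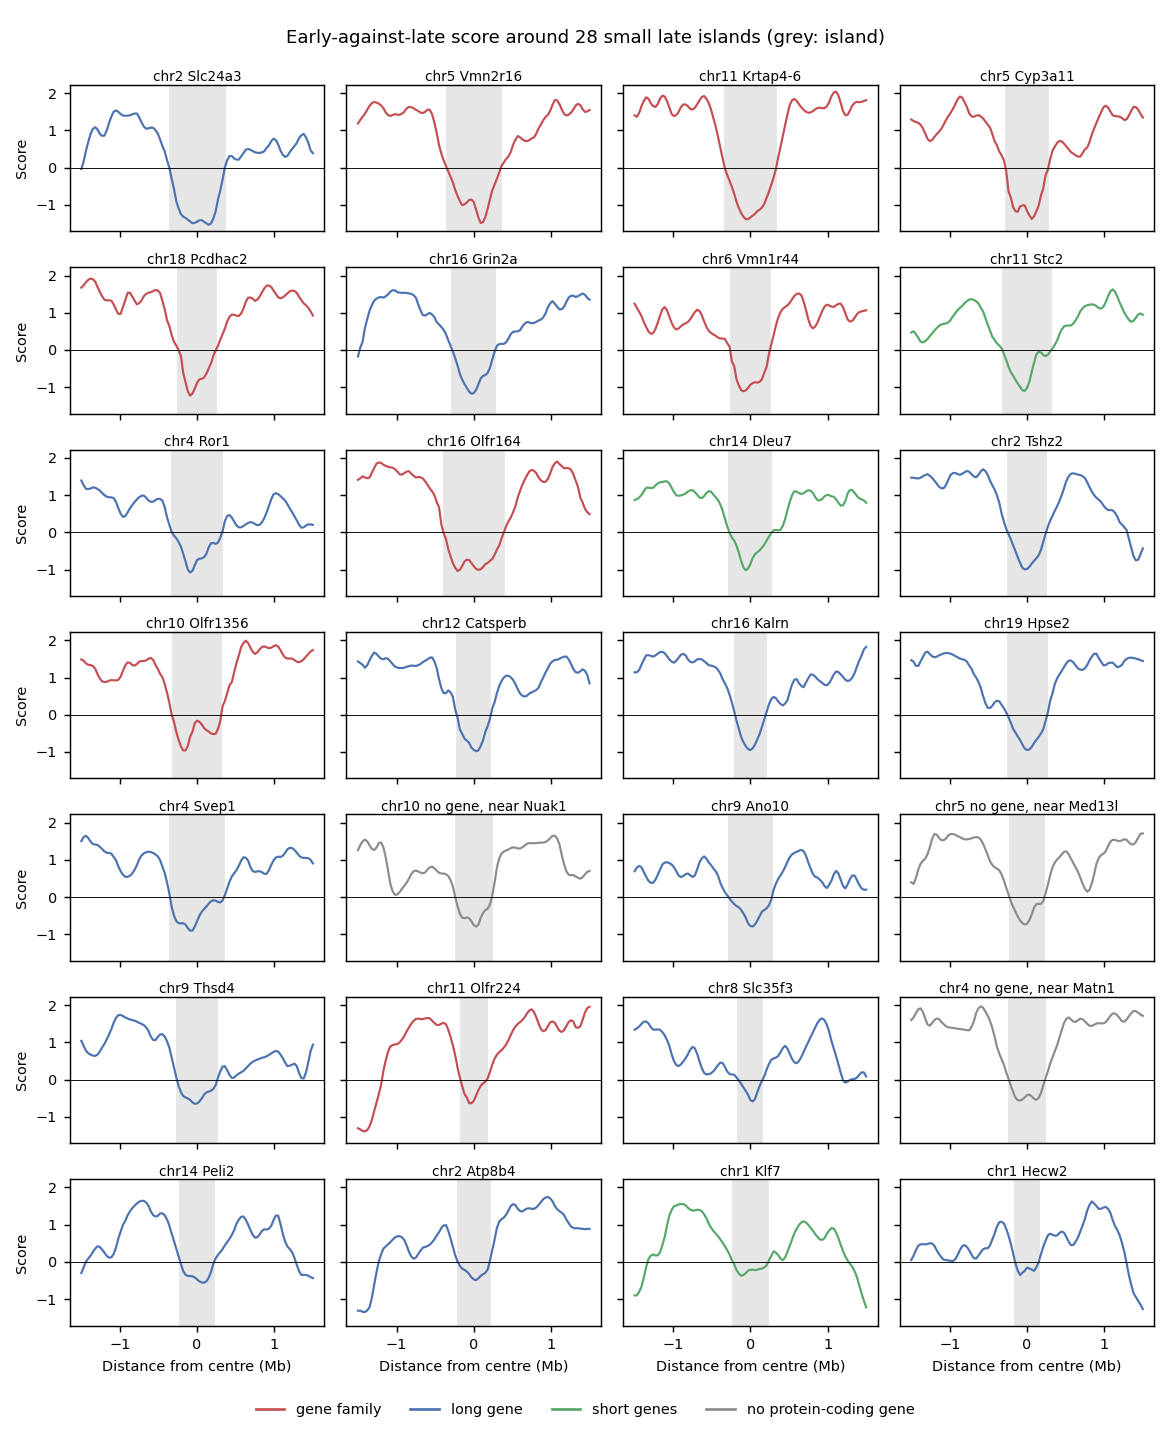
Each panel shows the score (y axis, deposited units) against distance from the island's centre in Mb (x axis), with the island in grey, ordered from the lowest minimum (-1.53, Slc24a3) to the highest (-0.36, Hecw2). Family islands (red), long-gene islands (blue), short-gene islands (green) and islands with no protein-coding gene (grey line) all form valleys between flanks above 0, with the lowest point at a median of 11.1% of the island's length from its centre.

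**Figure D4:**
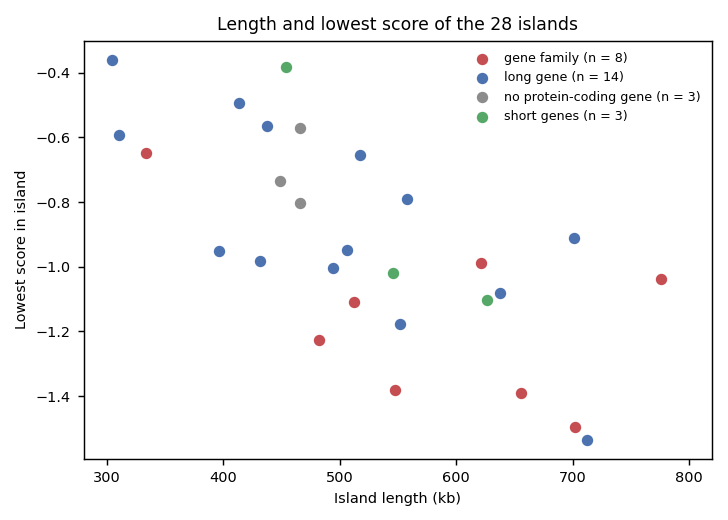
Each point is an island, by its length in kb and its lowest score, coloured by gene content. The deepest islands, those of Slc24a3 (713 kb, -1.53) and Vmn2r16 (702 kb, -1.49), are among the longest, and the shortest, that of Hecw2 (305 kb), is the shallowest.

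Of the family islands, the deepest held vomeronasal receptors of type 2, which detect pheromones. It ran from 108877538 to 109579190 on chromosome 5, with a lowest score of -1.49 at 109331887, beside Vmn2r16. Its 8 receptor genes had midpoint scores from -1.47 to -0.66, and Crlf2, at the upper edge, had -0.13. The next 2 members, Vmn2r8 and Vmn2r9, lay in the lower flank, the nearer 25.03 kb outside the edge. A second vomeronasal island, of type 1 receptors, ran from 89740495 to 90252480 on chromosome 6 (lowest -1.11). It held 13 genes with a Vmn1r symbol, from -1.11 to -0.15, with 1 more in each flank. V1ra8, not counted by that symbol, lay inside at -0.45.

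The keratin island, from 99388811 to 100044467 on chromosome 11, was the richest in genes, with 47. It lay between the earliest surroundings of all, with flank medians of 1.60 and 1.59 and a fall of 3.33 from the lower of its flank peaks to its lowest score of -1.39. The lowest point, at 99670711, was in the keratin-associated genes, which encode proteins of the hair shaft matrix. At the edges, type I keratin genes of epithelia had scores near 0, with Krt10 of differentiating epidermis at -0.03 and the hair keratin gene Krt34 at -0.09. Of 49 genes with a Krt symbol in the island and its flanks, 32 were inside. The 17 outside included Krt14, Krt16 and Krt17 in the upper flank, so the boundary as drawn ran through the keratin cluster.

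The cytochrome island, from 145532364 to 146079507 on chromosome 5, had its lowest score of -1.38 at a position 0.412 kb from the midpoint of Cyp3a11. Its genes encode enzymes that oxidise drugs and steroids in liver and gut. Cyp3a41b had -0.64, Cyp3a41a -1.04, Cyp3a44 -1.12 and Cyp3a25 -0.72. Cyp3a59 crossed the upper edge with a midpoint at 0.14, and Cyp3a57 and Cyp3a16 lay in the lower flank. The widest spacing between measured positions of any island was here, 39.9 kb.

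On chromosome 18 the island from 37008027 to 37490596 (lowest -1.23) held 31 clustered protocadherin genes, adhesion genes that give neurons their surface identity. They were the alpha genes and Pcdhb1 to Pcdhb17 by symbol, and the upper flank held 27 more protocadherins, among them the gamma genes. The lower edge as drawn fell inside the alpha cluster. Pcdha1 to Pcdha10 had their lower ends outside and were counted inside by midpoint. The position nearest to that end had scores from 0.30 to 0.04 for Pcdha1 to Pcdha9, and -0.008 for Pcdha10. The upper edge fell inside the beta cluster. Pcdhb18 straddled the upper edge, with 22.5% of its length inside and a midpoint in neither run, and Pcdhb19 began 6.40 kb beyond.

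Olfactory receptors, the odour receptors of the nose, were the family counted in 3 islands. That on chromosome 16 (19107926 to 19883879, lowest -1.04) was the longest of all at 776 kb. It held 8 receptor genes from -1.04 to -0.73, the dendritic cell gene Lamp3 at -0.82, the glycosyltransferase gene B3gnt5 at -0.58, and 65.4% of the immunoglobulin lambda locus Igl, whose midpoint had -0.37. That on chromosome 10 (78687630 to 79308960, lowest -0.99) dipped on both sides of a rise. On the lower side Slc1a6 had -0.91. The island's 8 olfactory receptor genes ran from -0.96 at Olfr1356 to -0.17 at Olfr1351, with a median of -0.25. Beyond the rise lay the vomeronasal receptor genes Vmn2r80 at -0.49 and Vmn2r81 at -0.38. That on chromosome 11 (58437547 to 58770829, lowest -0.65) was the third shortest island. It held 16 receptor genes from -0.65 to -0.06 and the erythroid ubiquitin ligase gene Trim58 at -0.39, and 8 more receptors lay in its upper flank.

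Counted together, 121 family genes lay in the 8 islands and 62 more with the same first letters in their flanks, some of them far from the cluster. Several clusters thus had members on both sides of an edge as drawn. With a score smoothed over 300 kb, the place of an edge is uncertain. In 7 of the 8 the widest spacing between positions exceeded 25 kb, which was true of 1 of the other 20 islands (Catsperb, 28.8 kb). The share of spacings over 20 kb was 5.70% in family islands against 0.19% in the others and 0.59% over all runs. Reads from near-identical gene copies are hard to place, and no source used here says how they were treated. The part of this in the scores of the family islands was not tested.

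Of the sparse islands, 14 overlapped at least 1 gene of 100 kb or more. The deepest of all 28 was the Slc24a3 island, from 144869745 to 145582469 on chromosome 2, with a lowest score of -1.53 and a median of -1.37. It had a flat floor, and Slc24a3 (474 kb, 87.4% inside) had -1.50 at its start and 0.30 at its far end. The Grin2a island on chromosome 16 (9453564 to 10005506, lowest -1.18) held the whole of Grin2a, which encodes the GluN2A subunit of the NMDA receptor. Its midpoint had -0.95 and its ends -0.74 and -0.09. The Ror1 island on chromosome 4 (100029317 to 100667228, lowest -1.08) held all of Ror1, at -1.08 at midpoint, and the ubiquitin-conjugating gene Ube2u at -0.35. Its upper flank was among the least early, with a median of 0.30.

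The next islands lay down to about 1 below 0 at their lowest. The Tshz2 island (169295770 to 169790105 on chromosome 2, lowest -1.003) had no protein-coding midpoint but 8 long non-coding RNA genes, and 35.8% of Tshz2 reached into it. The Catsperb island on chromosome 12 (101259029 to 101690619, lowest -0.98) held all of Catsperb. The Kalrn island on chromosome 16 (34212577 to 34609265) went to -0.95 and held no other annotated gene by midpoint. The Hpse2 island on chromosome 19 (42813086 to 43318994, also -0.95) lay wholly inside Hpse2, a 602 kb gene of a heparanase-like protein, whose ends had 0.11 and 0.54. The Svep1 island on chromosome 4 (58078944 to 58780384) went to -0.91 beside Musk, the receptor kinase gene of the neuromuscular junction, at -0.89. In it the matrix protein gene Svep1 had -0.46 and the lysophosphatidic acid receptor gene Lpar1 -0.38.

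The shallower long-gene islands lay between -0.79 and -0.36. In that on chromosome 9 (122085862 to 122643866, lowest -0.79) Abhd5 had -0.78, Ano10, of a membrane protein family with lipid scramblases, -0.32 and the kinase gene Snrk -0.16. The Thsd4 island (60140328 to 60657830 on chromosome 9) went to -0.65 and the Slc35f3 island (125960047 to 126270471 on chromosome 8) to -0.59. The latter had its lowest position at the start of Slc35f3, and its potassium channel gene Kcnk1 had -0.16. The Peli2 island (47894623 to 48332049 on chromosome 14, lowest -0.57) held all of the ubiquitin ligase gene Peli2. That on chromosome 2 from 125969449 to 126383267 (lowest -0.49) held Fam227b at -0.23, the growth factor gene Fgf7 at -0.22 and Dtwd1 at -0.44, and parts of Galk2 and Atp8b4. The Hecw2 island on chromosome 1 (53996604 to 54301218) was the shallowest, at -0.36.

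Short genes were the only protein-coding genes in 3 islands. That on chromosome 11 from 31202249 to 31828806 went to -1.10 in a stretch without protein-coding genes, and Stc2, a secreted glycoprotein hormone gene, had -0.80 and Bod1, a chromosome attachment gene, -0.05. That on chromosome 14 from 61817966 to 62364026 went to -1.02, with Dleu7 at -0.29 and the ribonuclease H2 subunit gene Rnaseh2b at -0.03, both towards the upper edge. That on chromosome 1 from 63781505 to 64235727 went to -0.38 and held the transcription factor gene Klf7 at -0.22. The promoters of Stc2, Bod1, Dleu7 and Klf7 had 28, 24, 19 and 16 CpG.

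No protein-coding gene overlapped the last 3 islands. They ran from 83864943 to 84330529 on chromosome 10 (lowest -0.80), from 118965505 to 119414516 on chromosome 5 (lowest -0.74) and from 131143834 to 131609701 on chromosome 4 (lowest -0.57). They were not empty, with 9, 7 and 5 long non-coding RNA genes. The nearest protein-coding midpoints, of the kinase gene Nuak1, the Mediator subunit gene Med13l and the cartilage matrix gene Matn1, lay 288, 498 and 326 kb from their lowest positions. Their flanks were early, with medians of 0.90 to 1.57.

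Gene groups were drawn by the start of the symbol, so they leave out genes of like function under other names, among them Catsperb, Ror1, Musk, Lpar1 and Crlf2. The islands hold 0.886% of the 20554 autosomal protein-coding genes. Of 1507 chemosensory receptor genes 55 lay in 5 islands, and of 180 adhesion and neuronal surface genes 31 lay in 1 island, all protocadherins. Of 216 genes with ion channel symbols the islands held Grin2a and Kcnk1, of 362 solute carriers Slc1a6, Slc24a3 and Slc35f3, and of 155 genes with symbols such as Gpr, Fgf, Bmp or Wnt they held Fgf7. They held none of 24 pluripotency genes, 202 developmental transcription factor genes by symbol, 455 zinc finger genes, 482 immune genes, 91 cytoplasmic and 78 mitochondrial ribosomal protein genes. The flanks held 2658 of the 20554 genes. Among these were 3 of the pluripotency, 35 of the developmental, 52 of the zinc finger and 34 of the immune genes. They also included 18 of the cytoplasmic and 10 of the mitochondrial ribosomal genes. No group was tested against the share of all genes. At the overall share, groups of this size would have few members in the islands, so a count of 0 is no result about them. Of 1136 microRNA genes the islands held Mir6899, Mir3095 and Mir8106. Among all 20304 autosomal protein-coding genes with a score 25.6% lay below 0.

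The limits of the rule cut through a continuous range of runs. The shortest islands were those of Hecw2 (305 kb) and Slc35f3 (310 kb). The longest late runs that missed the length by being too short were 282 kb over the type II keratins on chromosome 15, such as Krt5 and Krt6a (lowest -0.49), 265 kb in Fstl4 (-0.51) and 259 kb in Hivep3 (-0.51). At the upper limit, the Olfr164 island had 776 kb, and a run of 811 kb at Runx1, a blood transcription factor gene, was left out (-1.43), as were 834 kb on chromosome 1 without a protein-coding gene (-1.13) and 840 kb holding Gata6 (-1.48). A run holding Sox14 (-1.19) missed the limit on flanks with 0.994 Mb on its shorter side, and the Olfr224 island passed with 1.01 Mb.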

How the data were processed

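The deposited table gives, per the file headers, a chromosome, a start and a score per position, which the authors made from both libraries and smoothed in windows of 300 kb. Reads were aligned with Bowtie2 to mm10, per the submitters' processing notes. Counting, the treatment of reads with several matches, scaling, log base and zero point were not given in the sources used here. DNA from 10000 sorted cells was sonicated to 100 to 600 bp and amplified, per the labels' protocols. Of 384798 positions 4 had no value, and 364448 autosomal positions were used, at a median spacing of 5776 bp; 0 per-sample columns went unused.

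Runs were drawn in Python 3.11.15 (numpy 2.4.6, pandas 2.3.3) and the rule was tested on simulated profiles. A run spans its first to last position. Genes (GRCm38.p6, RefSeq) counted by midpoint, and took the score of the nearest position within 100 kb; 333 entries of alternate sequences were left out. Of 182 island genes 134 had a listed promoter. The members and gene lists were chosen with earlier results of these data known. Genes named were those nearest the lowest position, the longest, group members and those at the limits; Krt10, Krt34, Crlf2, Igl and other genes at edges were chosen after their values were seen.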

Additional observations from a re-analysis of the deposited data

How the results depend on the processing

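There were no replicates, so no replicate could be left out. No paired analysis was possible because each fraction has 1 library. Of 63 values under alternative settings 45 stayed within 1.5 times (counts and densities) or the 95% interval over islands, genes or promoters. The other 18 did not. The intervals over genes and promoters take these as independent, so they serve here only as a yardstick. Counts, densities, lengths and shares cannot change sign, and the lowest score is below the zero point by the rule. The ratio of gene density to the flanks stayed below 1, from 0.196 to 0.813. At the autosomal median (-0.30) there were 42 islands, which included 20 of the 28, and the density was 7.70 genes per Mb, its ratio to the flanks 0.498 (0.755 as reported), the median gene length 7.98 kb, and the CpG-rich share 43.8% in sparse islands (below the autosomal 58.6%, where it was above as reported) and 0% in family islands, of which there were again 8. The islands of Ror1, Olfr1356, Olfr224, Slc35f3, Atp8b4, Klf7, Hecw2 and the one near Med13l were not among the 42. With flanks of at least 0.5 Mb there were 92 islands, 14 with a family, and 6.06 genes per Mb. Without the family islands, an alternative chosen after seeing the data, the density was 2.91 per Mb, the ratio 0.196, the median gene length 101 kb and the median CpG count 16. All annotated genes gave 23.0 per Mb, the mean gene length was 63.4 kb against a median of 3.998 kb, and the median GC content of promoters was 42.7%. A limit of 5 CpG gave 92.6% and 15.9% of promoters in sparse and family islands, and one of 15 gave 51.9% in sparse islands. The read depth is unknown, so what it limits cannot be stated.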

Other observations

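Chromosome X, which the rule leaves out, was drawn in the same way. It had 153 runs, 17 of them late and 300 to 800 kb long, and none (0) met the rule on flanks.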
